A study of Homo sapiens with 2 samples.

Results

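The genes described here are MDM2, its paralog MDM4 and 7 genes known as direct p53 targets: PPM1D, GADD45A, BTG2, DDB2, XPC, FDXR and TP53I3. They were taken by symbol, as every transcript row of the arrays whose annotated gene name was one of these 9. This gave 9 of 23595 genes with a symbol and 33 of 45033 transcript rows, a row being a set of 3 probes designed against 1 transcript and summarised to 1 intensity. The study used Panc1, an established cell line from a human pancreatic duct carcinoma. The cells were pretreated for 24 h with clofibrate, a lipid-lowering fibrate and agonist of the nuclear receptor PPARalpha, or with DMSO, the solvent control. The 24 h is labelled a pretreatment, and what followed it is not described here. Total RNA of each treatment was labelled with Cy3 and read on 1 NimbleGen 1-colour array, so there was 1 clofibrate array and 1 DMSO array. The clofibrate dose is not given in the sources used here. With 1 array a group, no difference below has a replicate check and no test was run, and precision is limited by the number of arrays.

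In normal cells p53 is a transcription factor that is kept low by MDM2, a ubiquitin ligase, and held inactive by MDM2 and MDM4 together. DNA damage and other stresses release it. It then switches on genes for cell cycle arrest, repair and cell death, along with MDM2 and PPM1D, which turn it off again. Panc1 is known to carry a missense-mutant p53, which limits the line as a model of this response.

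The RefSeq promoter windows of these genes (GRCh38.p14, 250 bases before to 50 after each annotated start) were searched for the p53 consensus site. The search covered both strands, since the motif is its own reverse complement. A site was a pair of p53 half-sites with a spacer of 0 or 1 base, at most 2 mismatches in all, and the central C and G of each half-site intact. Of 35116 windows of this length, 0.533% held such a site and 0.0199% held one without a mismatch. There were 13 windows for 8 of the 9 genes, GADD45A having none, and their GC content ran between 52.7% and 74.7%. DDB2 and MDM2 had a match. The MDM2 match lay at the downstream of its annotated starts, the p53-responsive one, and not at the upstream start. The 2 stretches with a full site are given 5′ to 3′, with the half-sites in capitals. The third is the stretch of FDXR that ends in 1 half-site without a mismatch, which 6.63% of all windows held somewhere.
MDM2, chr12:68808823-68808962, plus strand: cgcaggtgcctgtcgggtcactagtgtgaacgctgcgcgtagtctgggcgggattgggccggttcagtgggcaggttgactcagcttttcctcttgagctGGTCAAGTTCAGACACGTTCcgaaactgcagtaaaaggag
DDB2, chr11:47214879-47214999, plus strand: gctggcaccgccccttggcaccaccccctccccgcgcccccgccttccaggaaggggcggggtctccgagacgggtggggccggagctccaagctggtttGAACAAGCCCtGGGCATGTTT
FDXR, chr17:74872996-74873105, minus strand: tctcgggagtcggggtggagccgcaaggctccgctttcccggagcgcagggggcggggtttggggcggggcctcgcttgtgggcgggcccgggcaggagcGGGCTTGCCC
The MDM2 site had 2 mismatches and no spacer. It began 94 or 101 bases before the start, depending on which of 2 neighbouring start sites was used. The DDB2 site had 0 mismatches and a spacer of 1 base, and lay just past the start. A match is a description of the letters in the window and shows no binding in these cells. Windows of BTG2, MDM4, PPM1D, TP53I3 and XPC held no match, which says only that these letters were not there.

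Both arrays were of like brightness. Over all transcript rows, the median intensity was 402 with clofibrate and 402 with DMSO, and 5000 random probes, which give the background, read 48.1 with clofibrate and 48.7 with DMSO. All 33 rows of the 9 genes lay above the random probes on both arrays. Of 10 listed duct and carcinoma markers, KRT8, KRT18 and VIM lay at or above the median over all genes (8.51, log2 scale). VIM, the brightest at 11.87 with clofibrate and 12.03 with DMSO, is a mesenchymal marker and not one of duct epithelium. KRT7, EPCAM, SOX9, MUC1, CDH1, KRT19 and CFTR lay below that median. KRT19 on the clofibrate array and CFTR on both arrays lay below the random probes as well. The summed intensity of these 10 markers was 6640 with clofibrate and 7099 with DMSO, and VIM was the largest part of it. Of 5 acinar, 4 islet, 4 liver and 4 endothelial markers, 0 lay at or above that median, and of 6 stromal markers 1 did (COL1A1). In total RNA from a culture, fewer cells of a type and less RNA per cell cannot be told apart.

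**Figure D1:**
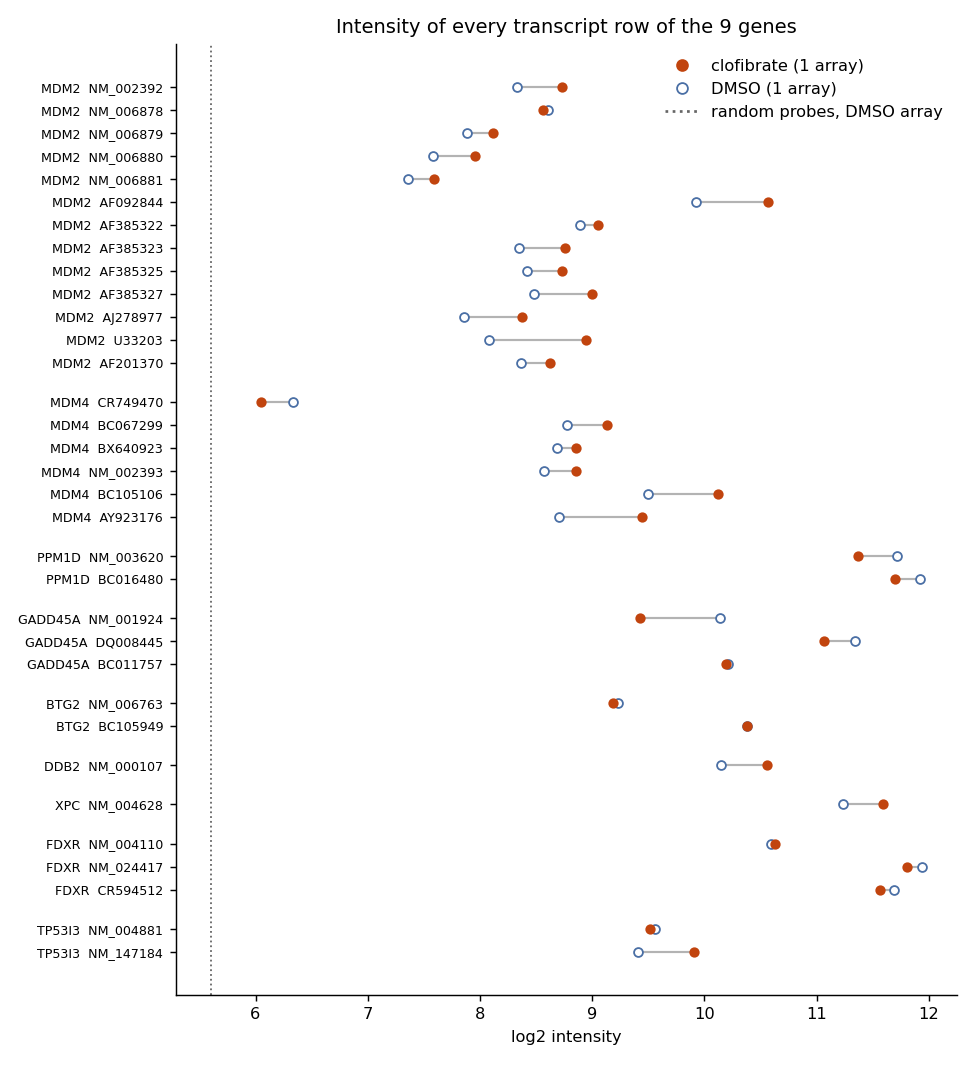
Log2 intensity (horizontal axis) of each of the 33 transcript rows, by gene and transcript identifier, on the clofibrate array (filled) and the DMSO array (open), with the random probes of the DMSO array as a dotted line. In 12 of 13 MDM2 rows and 5 of 6 MDM4 rows the clofibrate value lies to the right of the DMSO value, and in all rows of PPM1D, GADD45A and BTG2 it lies at or to the left of it.

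The negative regulators MDM2 and MDM4 read higher with clofibrate, and the phosphatase PPM1D read lower. MDM2 was the mean of 13 rows, and its log2 level was 8.69 with clofibrate and 8.32 with DMSO, a difference of 0.37 or 1.30-fold. MDM4, which lacks ligase activity of its own and acts with MDM2, was at 8.74 with clofibrate and 8.43 with DMSO, a difference of 0.31 or 1.24-fold over 6 rows. PPM1D, which encodes the phosphatase WIP1 that removes activating phosphates from p53 and its kinases, was at 11.53 with clofibrate and 11.82 with DMSO, a difference of -0.29.

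Each difference was set beside the spread (SD) of differences among genes of similar level on the same arrays, which holds true differences as well as error and is no replicate error. For MDM2 that SD was 0.36, for MDM4 0.33 and for PPM1D 0.21. The MDM2 and PPM1D differences were thus past 1 SD and the MDM4 difference was within it.

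The MDM2 rows cover transcripts on chromosome 12, among them NM_002392 from 67488246 to 67520481 (hg18). Their intensities ran between 193 and 1514 (median 424) on the clofibrate array and between 164 and 972 (median 326) on the DMSO array. The brightest row, AF092844, read 1514 with clofibrate and 972 with DMSO, a difference of 0.64. The row with the largest difference, U33203, read 494 with clofibrate and 271 with DMSO, a difference of 0.87 or 1.82-fold. The reference transcript NM_002392 read 424 with clofibrate and 322 with DMSO, a difference of 0.39.
Only NM_006878 was below 0, with 377 on the clofibrate array and 389 on the DMSO array. The other 9 MDM2 rows had differences between 0.16 and 0.52. The 5 rows annotated from position 67488246 had a median difference of 0.23, and the 6 annotated from position 67489258, all from sequences starting further downstream in the gene, had a median of 0.46. These 2 sets overlapped, with ranges of -0.05 to 0.39 and of 0.16 to 0.87. The single row from position 67488510 (AF092844) was at 0.64, and the single row from position 67489273 (AF201370) at 0.25. The differences thus did not follow the order of the annotated starts, and use of 1 promoter or another was not measured. Rows of 1 gene measure overlapping transcripts on the same 2 arrays, so they are not replicates of the treatment.

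A gene with many rows is a mean of many values, and so was also compared with other genes of many rows, a comparison chosen after the values were seen. Over the 37 genes with at least 10 rows the SD of the difference was 0.17 and the median 0.04. MDM2 was second among them, and the 1 gene with a larger difference was ST3GAL3 at 0.46. At least 90% of rows were above 0 in 16.2% of these genes, MDM2 included, and at least 90% were below 0 in 0.0% of them. Among the 547 genes with 5 to 9 rows, 32 had a difference above that of MDM4.

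**Figure D2:**
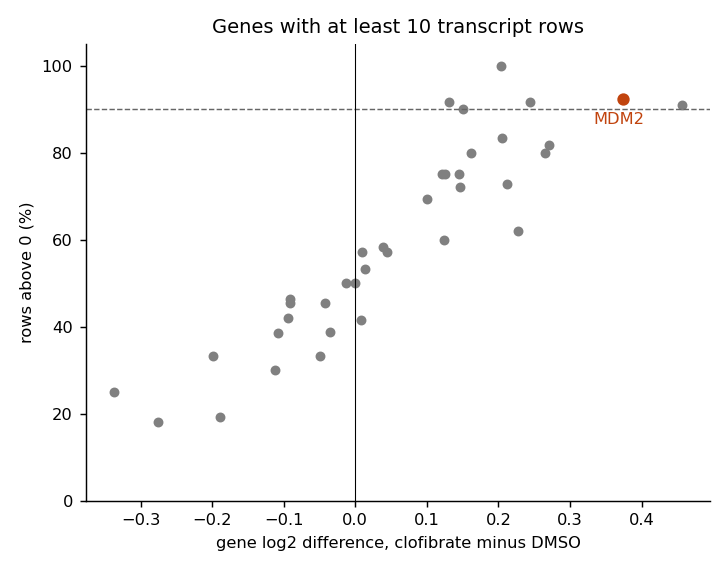
Each dot is 1 of the 37 genes with at least 10 transcript rows, with its log2 difference (clofibrate minus DMSO, horizontal axis) and the percent of its rows above 0 (vertical axis), and the dashed line marks 90%. MDM2 lies at 0.37 with 92.3% of its rows above 0.

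MDM4 rows lie on chromosome 1, with NM_002393 from 202752188 to 202808458 (hg18). BC105106, the brightest, read 1113 with clofibrate and 722 with DMSO, a difference of 0.62. AY923176 read 695 with clofibrate and 418 with DMSO, a difference of 0.74. Both rows, like the 2 MDM2 rows AF092844 and U33203, were past 1.5-fold.
The reference transcript NM_002393 read 463 with clofibrate and 379 with DMSO, a difference of 0.29. The row CR749470, annotated over a longer span, was the dimmest at 66.1 with clofibrate and 80.4 with DMSO, and it was the MDM4 row below 0, at -0.28. In both MDM genes the brightest row thus had a larger difference than the mean over rows.

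PPM1D had 2 rows on chromosome 17, of which NM_003620 runs from 56032335 to 56096818 (hg18). NM_003620 read 2651 with clofibrate and 3365 with DMSO, a difference of -0.34. BC016480 read 3319 with clofibrate and 3893 with DMSO, a difference of -0.23. The 2 rows ran the same way and differed from each other by less than the SD over rows of similar level (0.23).

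The growth arrest gene GADD45A read lower with clofibrate, and BTG2 stood near 0. GADD45A encodes a small stress protein that binds PCNA and p21 and slows the cell cycle, and its level was 10.23 with clofibrate and 10.56 with DMSO, a difference of -0.34 beside an SD of 0.22 over genes of similar level. BTG2 encodes an antiproliferative protein that promotes removal of mRNA poly(A) tails, and its level was 9.78 with clofibrate and 9.81 with DMSO, a difference of -0.02 beside an SD of 0.25.
The 3 GADD45A rows lay below 0 by unequal amounts. NM_001924 (chromosome 1, 67923470 to 67926607, hg18) read 687 with clofibrate and 1126 with DMSO, a difference of -0.71. DQ008445 read 2147 with clofibrate and 2598 with DMSO, a difference of -0.28. BC011757 read 1171 with clofibrate and 1187 with DMSO, a difference of -0.02. The low value of the gene thus came mostly from NM_001924, the row with the longest annotated span.
Both BTG2 rows stood near 0. NM_006763 (chromosome 1, 201541286 to 201545353, hg18) read 583 with clofibrate and 601 with DMSO, and BC105949 read 1333 with clofibrate and 1335 with DMSO.

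The damage recognition genes DDB2 and XPC read higher with clofibrate. Both proteins find bulky lesions at the start of global genome nucleotide excision repair, DDB2 as the lesion-binding subunit of a ubiquitin ligase and XPC as the factor that opens the damaged site. DDB2, measured by NM_000107 alone (chromosome 11, 47193088 to 47217339, hg18), read 1510 with clofibrate and 1136 with DMSO. This difference of 0.41 or 1.33-fold was the largest of the 9 genes. XPC, measured by NM_004628 alone (chromosome 3, 14161647 to 14195143, hg18), read 3091 with clofibrate and 2418 with DMSO, a difference of 0.35 or 1.28-fold. The SD at similar level was 0.22 for DDB2 and 0.21 for XPC, so both lay between 1 and 2 SD. Each rests on 1 row.

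FDXR and TP53I3, a pair of redox enzymes, gave no common direction. FDXR, the mitochondrial ferredoxin reductase that feeds electrons to steroid and iron-sulfur cluster synthesis, was at 11.33 with clofibrate and 11.41 with DMSO, a difference of -0.07 with rows between -0.14 and 0.04. TP53I3, a quinone oxidoreductase tied to p53-dependent cell death, was at 9.71 with clofibrate and 9.48 with DMSO, a difference of 0.23 that was within the SD of 0.28 over genes of similar level.
The 3 FDXR rows lie on chromosome 17, with NM_024417 from 70370220 to 70380692 (hg18). NM_024417 read 3573 with clofibrate and 3928 with DMSO. CR594512 read 3035 with clofibrate and 3310 with DMSO. NM_004110 read 1582 with clofibrate and 1541 with DMSO, and was the FDXR row above 0.
The 2 TP53I3 rows lie on chromosome 2 and disagreed. NM_147184 (24153809 to 24161159, hg18) read 961 with clofibrate and 679 with DMSO, a difference of 0.50. NM_004881 read 733 with clofibrate and 754 with DMSO, a difference of -0.04.

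**Figure D3:**
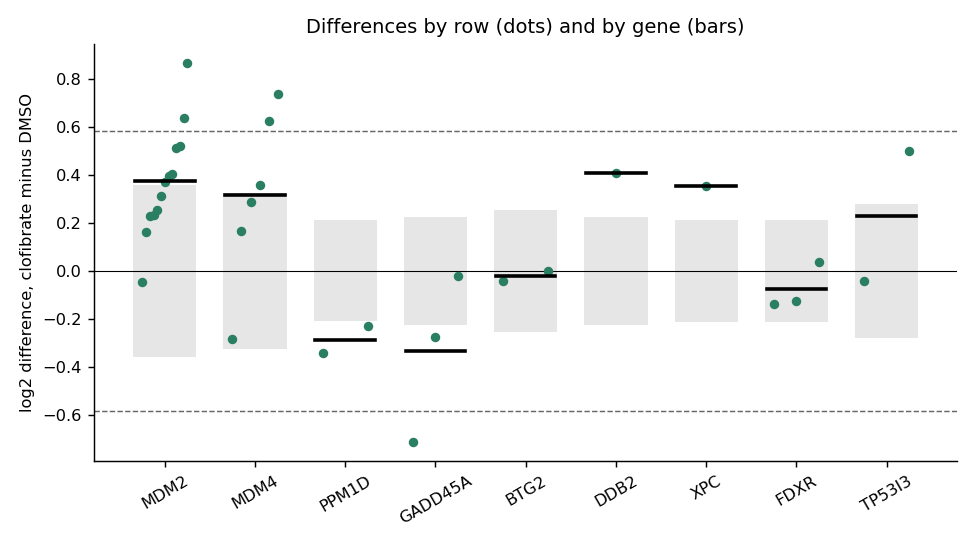
Log2 difference, clofibrate minus DMSO, of each transcript row (dots) and of each gene as the mean over its rows (black bars). Grey boxes span 1 SD either side of 0 over genes of similar level, and dashed lines mark 1.5-fold. The bars of MDM2, DDB2 and XPC lie above their boxes, those of PPM1D and GADD45A below theirs, and no bar reaches 1.5-fold.

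Read as a set, the 9 genes showed no common direction. With clofibrate 5 of 9 were higher (DDB2, MDM2, XPC, MDM4 and TP53I3) and 4 of 9 were lower (GADD45A, PPM1D, FDXR and BTG2), where 50.4% of all genes were above 0. Their median difference was 0.23, and the median over all genes was 0.0036. None of the 9 genes was 1.5-fold different, where 4.53% of all genes were higher and 4.62% lower by that much. None was 2-fold different either, where 1.03% of all genes were higher and 0.911% lower by 2-fold or more. With the brightest row of each gene in place of the mean over rows, MDM2 (0.64) and MDM4 (0.62) were past 1.5-fold higher. The share of all genes past 1.5-fold by their brightest row was not computed, so these 2 values have no background beside them.
Differences over 1 SD of genes of similar level were seen in 5 of 9 genes, beside 27.9% of all genes, and 3 of these were higher (MDM2, DDB2, XPC) and 2 lower (PPM1D, GADD45A). No gene was past 2 SD. Of the 33 rows, 4 were higher by 1.5-fold or more, beside 6.41% of all rows, and 1 was lower by as much, beside 6.42%. Differences over 1 SD of rows of similar level were seen in 15 of 33 rows, beside 29.0% of all rows. The 5 rows past 1.5-fold were also over 2 SD of rows of similar level, beside 4.77% of all rows, and 4 of them came from the 2 MDM genes. The genes were chosen with earlier results of these data known, so these shares describe them and test nothing.

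**Figure D4:**
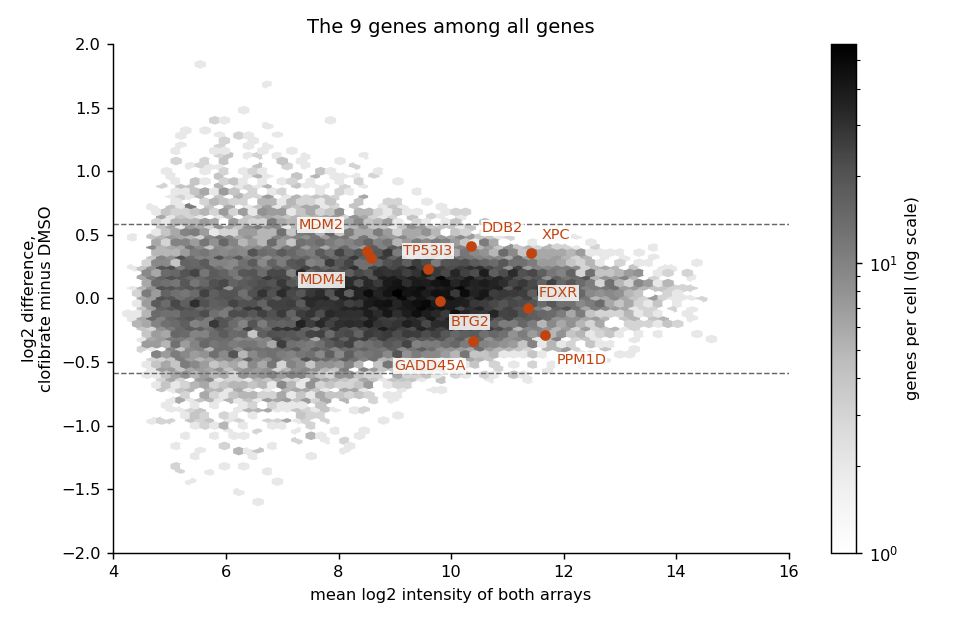
Log2 difference, clofibrate minus DMSO (vertical axis), against the mean log2 intensity of both arrays (horizontal axis) for all genes, shaded by the number of genes per hexagon on a log scale, with the 9 genes as labelled points and 1.5-fold as dashed lines. The 9 genes lie inside the dashed lines, and 27 genes past 2 on the vertical axis are outside the plot.

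Genes that neighbour the 9 on the chromosome had medians between -0.07 and 0.10. Within 500 kb either side of MDM2, 6 other genes lay at or above the median level, with 3 above 0 and 3 below and a median of -0.03. The same counts were found around MDM4, with a median of 0.02. Around DDB2, 18 such genes had a median of 0.02, and around XPC 6 had a median of 0.06. Around GADD45A, 2 were above 0 and 5 below (median -0.07), and around PPM1D 1 was above and 4 below (median -0.05). Around FDXR, 16 were above 0 and 8 below (median 0.10). Around TP53I3, 3 were above and 4 below (median -0.05), and around BTG2 6 were above and 7 below (median -0.0045). These values describe position only, and no difference between a gene and its neighbours was tested.

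Other p53 targets also lay on both sides of 0. Of 32 further targets, all measured, 19 lay at or above the median level. Of these 12 were above 0 and 7 below, none was 1.5-fold different (1.31% of all genes at this level were higher and 1.32% lower by that much), and the median was 0.04, where all 11798 genes at or above that level had a median of 0.01. Over all 32 the median was 0.09, with 22 above 0 and 10 below. CDKN1A, the cell cycle inhibitor p21, was at 11.90 with clofibrate and 11.60 with DMSO, a difference of 0.30 with rows at 0.15 and 0.45.
The 4 targets of that level furthest from 0 read lower. TIGAR, a fructose bisphosphatase that slows glycolysis, was at 9.08 with clofibrate and 9.58 with DMSO, a difference of -0.50. ZMAT3, an RNA-binding zinc finger protein, was at 9.93 with clofibrate and 10.42 with DMSO, a difference of -0.49 with rows at -0.50 and -0.47. ASCC3, a helicase of alkylation repair, differed by -0.36, and PMAIP1, the pro-apoptotic protein NOXA, by -0.33.

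Genes that modify or degrade p53 were likewise spread around 0. Of 21 measured, 19 lay at or above the median level, with 8 above 0 and 11 below, and the median was -0.03. KAT5, an acetyltransferase of p53 and histones, was the gene of this list past 1.5-fold, at 9.36 with clofibrate and 8.77 with DMSO. Its difference of 0.59 rested on 2 rows at 0.98 and 0.21, the brighter being at 0.21. In all, 1.31% of genes at this level were higher by 1.5-fold or more. The deubiquitinase USP10 differed by -0.32, and the paralogous acetyltransferases EP300 and CREBBP by -0.28 and 0.27. EP300 rested on 1 row and was past the SD of 0.21 over genes of similar level. CREBBP was within its SD of 0.33, with rows at 0.04 and 0.51.

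The partners of DDB2 and XPC in nucleotide excision repair lay on both sides of 0. Of 26 other genes of this pathway, 23 lay at or above the median level, with 10 above 0 and 13 below, a median of -0.10 and none past 1.5-fold. Among all 11798 genes at this level 6147 were above 0, and 1.31% were higher and 1.32% lower by 1.5-fold or more. RAD23B, which binds and stabilises XPC, was at 9.23 with clofibrate and 9.62 with DMSO, a difference of -0.39. RBX1, a subunit of the ubiquitin ligase that holds DDB2, differed by -0.34, and CUL4A, its scaffold, by -0.30, although the brightest CUL4A row was at 0.12. XRCC1, a ligation scaffold, differed by 0.34. DDB1, the direct partner of DDB2, was at 12.51 with clofibrate and 12.38 with DMSO, a difference of 0.13. It was named after its value was seen.

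Of 12 paralogs of these genes in the GADD45, BTG/TOB and PPM1 families, 5 lay at or above the median level, with 3 above 0 and a median of 0.08. They were BTG3 (-0.22), TOB1 (0.14), TOB2 (0.13), PPM1G (0.08) and BTG1 (-0.02). The brightest row was at -0.01 for BTG3, 0.02 for TOB1 and 0.44 for TOB2, so the rows of these genes disagreed in size. Among 12 ferredoxin and iron-sulfur cluster genes, the setting in which FDXR acts, 9 lay at or above that level, with 3 above 0 and 6 below and a median of -0.10. The scaffold ISCU differed by -0.32, the mitochondrial chaperone HSPA9 by -0.29, GLRX5 by -0.27 and LYRM4 by 0.19. The 2 GLRX5 rows were at -0.66 and 0.11, the brighter being at 0.11. No gene of either list was 1.5-fold different. Among all 11798 genes at or above the median level 6147 were above 0, and 1.31% were higher and 1.32% lower by 1.5-fold or more.

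**Figure D5:**
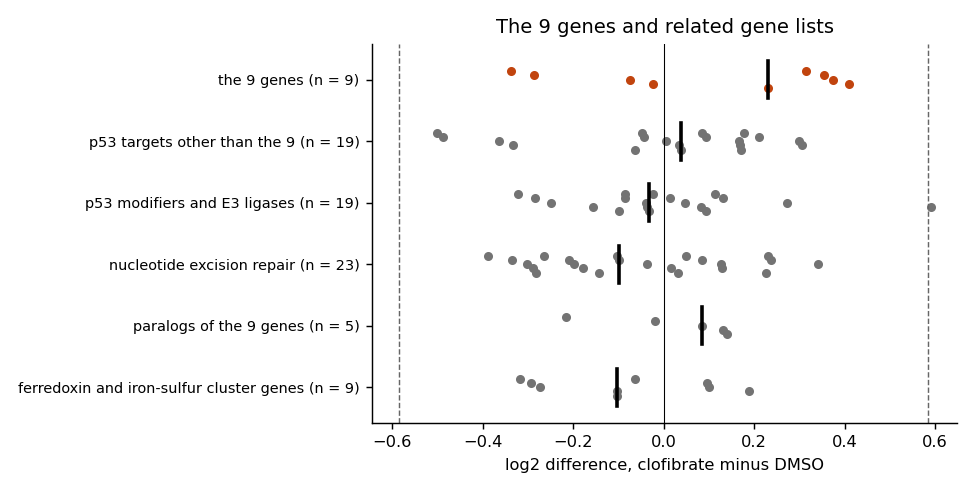
Log2 difference, clofibrate minus DMSO (horizontal axis), of the 9 genes and of the genes at or above the median level in each related list, 1 dot per gene, with list medians as vertical bars and 1.5-fold as dashed lines. Every list spreads to both sides of 0, and KAT5 at 0.59 is the gene past a dashed line. MDM2, at 8.50 on the mean log2 scale, lies just under the median level and is included among the 9.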

How the data were processed

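Each transcript row of the deposited files holds 1 linear intensity, which the authors made with RMA, as the submitters' processing notes say (version and settings not stated). Row positions are on hg18 per the file headers. The series value table was identical to the sample files in all rows. Here intensities were turned to log2, and a gene was the mean over rows of its symbol, updated through gene IDs by RefSeq (GRCh38.p14; 38916 of 42947 rows with a symbol matched). Differences are clofibrate minus DMSO. The SD at similar level used 40 equal bins of mean level. Genes were counted at 1.5-fold, and no p-value was computed. The rule named all rows of the 9 genes, CDKN1A, and up to 4 genes per list with the largest differences at or above the median level. BTG1, DDB1, ST3GAL3 and the cell type markers were named apart from it. Genes and lists were chosen with earlier results of these data known. The transcript of the p53 gene itself is not analysed here. The fold rule was tested on simulated data with differences of 2-fold or more, which are larger than those of the 9 genes. That test says nothing about differences of the size reported here. Alternatives were median centring, quantile normalization and loess on mean level (limma 3.58.1, R 4.3.3; span 0.3), the brightest row, rows above the random probes, the series value table, removal of a trend with gene span, and a 2-fold threshold. The rest ran in Python 3.11.15 with pandas 2.3.3, numpy 2.4.6 and matplotlib 3.10.9.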

Additional observations from a re-analysis of the deposited data

Results flagged for a closer look

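A further MDM2 row, outside the symbol-based set, also read higher with clofibrate. AF385324, which has no gene symbol in the files but is described there as an MDM2 splice variant (chromosome 12, 67489258 to 67519896, hg18), entered none of the values above. It read 367 with clofibrate and 263 with DMSO, a difference of 0.48 beside an SD of 0.41 over rows of similar level. It has the same annotated span as the MDM2 row AF385322 and was read on the same arrays, so it is no independent check.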

How the results depend on the processing

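The sign of the difference was kept by 9 of 9 genes under each of 7 alternatives to scaling, row choice and source values. Values ran from 0.37 to 0.64 for MDM2, 0.31 to 0.62 for MDM4, 0.41 throughout for DDB2, 0.34 to 0.37 for XPC, 0.18 to 0.50 for TP53I3, -0.30 to -0.23 for PPM1D, -0.38 to -0.28 for GADD45A, -0.07 to -0.0014 for BTG2 and -0.14 to -0.07 for FDXR. The median over the 9 genes ran from 0.18 to 0.35. With the brightest row of each gene, 2 genes (MDM2 and MDM4) were at least 1.5-fold higher, against 0 with the mean over rows. The brightest row of each is past that threshold, and the share of all genes under this rule was not computed. No other alternative moved a count, and the 2-fold threshold left both at 0. The filter on rows at the random probes removed none of the 33 rows, and the series value table held the same values as those used here. Neither of these alternatives could thus change a sign. Median centring moved the values little, since the median intensity was 402 on both arrays. No paired analysis was possible because there was only 1 array a group, which also left no array to omit.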

Other observations

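MTBP, which encodes a protein first described as a partner of MDM2 and also known in the start of DNA replication, was looked up after the values of the MDM genes had been seen. Its row NM_022045 had a log2 level of 7.22 with clofibrate and 7.95 with DMSO, a difference of -0.72 beside an SD of 0.53 over rows of similar level. Its other row, AK022122, was at 4.92 with clofibrate, below the random probes, and at 6.31 with DMSO. That row was thus at least 1.65-fold lower with clofibrate. Both rows are dim, and each is 1 value on 1 pair of arrays.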
